A study of Mus musculus with 6 samples.

Results

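The phagocyte NADPH oxidase and the superoxide dismutases were examined through 7 genes, Cybb, Cyba, Ncf1, Ncf4, Rac2, Sod1 and Sod2, in peritoneal macrophages (PEMs) that lack or retain Tim-4, a phosphatidylserine receptor encoded by Timd4. The genes were chosen by name, and each matched 1 of the 15415 genes listed in the expression table. RNA was sequenced from 6 libraries. The knockout group held 3 libraries of LysM-Cre; Tim-4 fl/fl PEMs, and the control group held 3 libraries of Tim-4 fl/fl PEMs. LysM-Cre is a Cre recombinase placed in the Lyz2 locus and is active in macrophages, monocytes and neutrophils, and in this line it deletes a floxed stretch between introns 1 and 3 of Timd4. Both groups carried the floxed alleles, and the controls carried no Cre, so the Cre insertion itself and the loss of Tim-4 cannot be told apart. The mice of the study were male C57BL/6J animals of 6 to 8 weeks, and PEMs were collected 3 days after starch was given into the peritoneum. Under treatment, the labels of each of the 6 libraries say lps and give neither dose nor time. The paper's methods give a dose and a time for activating PEMs with lipopolysaccharide, but do not tie them to the sequenced libraries. No untreated library was analysed here, so all values below are of cells under that label. Nothing in the labels says whether a library came from 1 mouse or from pooled mice, so p-values measure the spread between these libraries.

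The phagocyte NADPH oxidase is the enzyme behind the respiratory burst. Its membrane core, cytochrome b558, is made of a catalytic chain, gp91phox (Cybb, also called NOX2), and a stabilising chain, p22phox (Cyba). On activation cytosolic subunits, p47phox (Ncf1) and p40phox (Ncf4) among them, join the membrane core together with a GTP-bound Rac protein (Rac2 or Rac1), and electrons pass from NADPH to oxygen to form superoxide. Superoxide dismutases turn superoxide into hydrogen peroxide, SOD1 with copper and zinc in the cytosol and SOD2 with manganese in the mitochondrial matrix. Sod2 is a textbook target of NF-κB in cells exposed to inflammatory stimuli. Catalase, peroxiredoxins and glutathione peroxidases then remove the peroxide.

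The titles and the genotype entry of the labels name the groups the other way round, and the titles were followed. Levels are given in FPKM, fragments counted for a gene divided by its length and by the library's total. For Timd4, knockout libraries 1 to 3 read 0.333, 0.394 and 0.246 FPKM, and control libraries 1 to 3 read 19.5, 12.05 and 1.19 FPKM. Every library labelled as knockout by its title was thus below every control library, but control library 3 was far below the other controls. The log2 fold change of Timd4 was -2.66 (SE 0.74, adjusted p = 0.0715, limma) and did not pass. Without control library 3 it was -3.63. That library was singled out by its own Timd4 level, so that fit is no test of Timd4. With library numbers as a replicate block, Timd4 passed at -2.66 (adjusted p = 0.0436, limma). Lyz2, the locus that carries the Cre, read 41.4, 4656 and 106 FPKM in knockout against 7090, 7171 and 8482 FPKM in control libraries, so that knockout library 2 lay between the other knockout libraries and the controls. The log2 fold changes of the 7 genes are therefore also given without control library 3 and without knockout library 2. Of 6 macrophage markers all were measured and none passed the test, and their summed level was 2563 to 2840 FPKM in knockout and 2188 to 2659 FPKM in control libraries. That sum was carried by Cd68, at 1642 ± 61.1 FPKM in knockout and 1091 ± 282 FPKM in control libraries, and without it the other 5 summed to 878 to 1268 FPKM in knockout and 1280 to 1546 FPKM in control libraries. At an unadjusted p under 0.05 there were 3 of the 6 (limma), beside 27.6% of all tested genes, and their groups did not overlap, which held for 34.1% of all tested genes, with Cd68 higher in knockout, and Csf1r (105 ± 33.3 against 168 ± 14.9 FPKM) and Cd14 (338 ± 72.2 against 556 ± 73.2 FPKM) lower. Markers of other cells moved with the groups, beside 4.74% of all tested genes that were lower past the threshold. Of 6 B cell markers 5 fell, with sums of 11.03 to 11.94 FPKM in knockout against 32.9 to 125 FPKM in control libraries, and the highest was Cd79a. All 5 tested mast cell markers of 6 listed fell, from sums of 38.2 to 49.3 FPKM in control to 1.89 to 2.27 FPKM in knockout libraries, and the highest was Tpsb2. Of 12 neutrophil markers 6 were tested and S100a8 and Camp fell, with sums of 109 to 230 FPKM in knockout against 232 to 479 FPKM in control libraries. The sums nearly met and followed Mmp8, the highest of them, which read 29.2 to 127 FPKM in knockout and 19.5 to 294 FPKM in control libraries. Camp rested on 9 to 37 reads in a library, and Csf3r was at 38.7 ± 10.1 FPKM in knockout and 28.1 ± 8.91 FPKM in control libraries (adjusted p = 0.304, limma). In addition, the defining genes Ly6g, Mpo and Elane had no row in the table. No eosinophil or T cell marker reached the filter, and their sums were at most 2.49 and 1.54 FPKM. The 4 tested markers of mesothelial cells and fibroblasts did not pass, with sums of 12.1 to 34.4 FPKM in knockout and 2.13 to 13.1 FPKM in control libraries. Neutrophils also carry this oxidase, and B cells express several of its subunits at lower levels. The part of these cells in the values below was not tested, and in such bulk RNA fewer cells of a type and less RNA per cell cannot be told apart.

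All 7 genes were among the abundant transcripts of PEMs, between the 94.5 and 99.7 percentile of the listed genes in every library. In control libraries the order of the mean level per length was Cybb, Cyba, Sod2, Sod1, Ncf1, Ncf4 and Rac2. The ranges of Cybb and Cyba overlapped, both lay above Sod2, and Sod2 lay above the remaining genes, whose ranges overlapped with those of their neighbours. In knockout libraries Cyba came before Cybb with overlapping ranges, Sod2 again stood apart on both sides, Ncf1, Sod1 and Ncf4 overlapped, and Rac2 was below all of them. The membrane chains were thus at several times the level of the cytosolic subunits in both groups. Between 2664 and 225229 reads stood behind each value, which gives a counting error of at most 1.94%, against a spread between libraries of a group (coefficient of variation) of 3.93% to 31.8%.

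None of the 7 genes passed the test at an adjusted p of 0.05 in the fit over all 9030 tested genes, of which 7.31% passed. At an unadjusted p under 0.05 they were 2 of 7, Cybb and Sod2, against 27.6% of all tested genes (17.7% for those lower in knockout). With the replicate block the unadjusted p of Cybb was 0.0709 (limma), above 0.05, and that of Sod2 was 0.00863 (limma). Cybb and Sod2 were also the 2 of 7 genes whose groups did not overlap, both with all knockout libraries below all controls, while groups did not overlap for 34.1% of all tested genes and lay in that order for 23%. Log2 fold changes were below 0 for 6 of 7 genes, with a median of -0.07, beside a median of -0.11 and 63.5% below 0 for all tested genes. The deposited FPKM scale thus placed the typical gene lower in knockout. After the FPKM were rescaled by the median of ratios, which brought the median of all genes to 0.02, only Cybb, Rac2 and Sod2 kept values below 0.

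**Figure D1:**
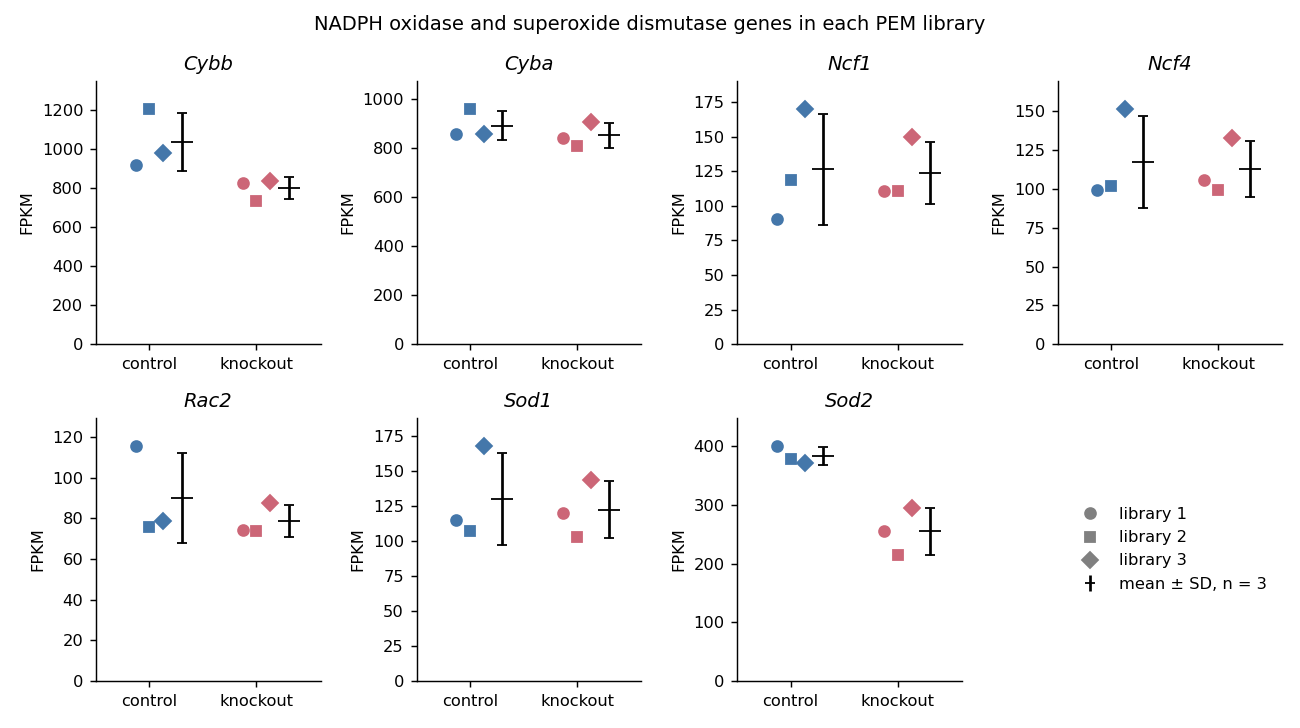
FPKM of the 7 genes in each control (blue) and knockout (red) library, with the library number as the symbol and the mean ± SD of 3 libraries in black; each vertical axis starts at 0. The groups are apart for Cybb and Sod2 and overlap for Cyba, Ncf1, Ncf4, Rac2 and Sod1, and knockout library 3 is the highest of its group for all 7 genes.

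The sequence before the start of the genes is shown for the membrane partners Cybb and Cyba and for the dismutases Sod2 and Sod1. In each pair the groups were apart for one gene and overlapped for the other on the deposited scale. The pairs were thus chosen by their values, and a link of motifs to the groups was not tested. The 250 bases upstream of the annotated start were taken from RefSeq (GRCm38.p6). The set of such regions used here held 5 of the 7 genes, Ncf1 being the other one, and lacked Ncf4 and Rac2. Capitals mark matches on either strand to 7 motifs, namely the PU.1 core GAGGAA, the AP-1 motif TGANTCA, the interferon-stimulated response element core GAAANNGAA, the GAS motif TTCNNNGAA, a 10-base NF-κB motif, the NRF2 core TGACNNNGC and the GC box GGGCGG. The regions lie at chrX:9469325-9469574 on the minus strand for Cybb, chr8:122432941-122433190 on the minus strand for Cyba, chr17:13007589-13007838 on the plus strand for Sod2 and chr16:90220512-90220761 on the plus strand for Sod1, and each is written 5′ to 3′ on the strand of its gene.
Cybb: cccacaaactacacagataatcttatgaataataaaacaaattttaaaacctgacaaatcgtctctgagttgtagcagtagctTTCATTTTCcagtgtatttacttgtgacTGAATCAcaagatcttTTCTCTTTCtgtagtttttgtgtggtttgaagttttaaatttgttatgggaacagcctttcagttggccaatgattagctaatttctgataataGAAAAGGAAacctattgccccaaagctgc
Cyba: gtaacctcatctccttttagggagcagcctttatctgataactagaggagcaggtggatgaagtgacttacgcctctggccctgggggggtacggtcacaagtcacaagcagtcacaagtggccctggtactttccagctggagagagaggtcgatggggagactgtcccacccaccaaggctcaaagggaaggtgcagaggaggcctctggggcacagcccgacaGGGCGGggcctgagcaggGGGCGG
Sod2: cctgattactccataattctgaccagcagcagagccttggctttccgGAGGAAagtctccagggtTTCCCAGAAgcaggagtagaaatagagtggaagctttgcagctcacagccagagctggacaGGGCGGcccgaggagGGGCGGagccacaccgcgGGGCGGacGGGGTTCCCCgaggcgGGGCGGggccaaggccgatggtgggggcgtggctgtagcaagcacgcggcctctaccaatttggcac
Sod1: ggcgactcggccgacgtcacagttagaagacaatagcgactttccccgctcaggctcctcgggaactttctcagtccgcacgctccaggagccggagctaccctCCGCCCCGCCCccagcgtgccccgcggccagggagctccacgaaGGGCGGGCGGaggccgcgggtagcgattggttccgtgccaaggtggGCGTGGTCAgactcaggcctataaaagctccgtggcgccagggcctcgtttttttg
The Cybb stretch, at 34% G and C, held 3 matches to the response element core and 1 to AP-1, and no GC box. Cyba, at 60% G and C, held 2 GC boxes and no other match. Sod2, at 63.6%, held 4 GC boxes and 1 match each to the PU.1 core, the GAS motif and the NF-κB motif, the last starting 83 bases before the start. Sod1, at 66.4%, held 4 GC boxes, some of which overlap each other, and 1 match to the NRF2 core. Ncf1, not printed, held overlapping matches to the GAS motif and the response element core, and 1 GC box. Over 32851 such regions, 7.13% held the response element core, 6.75% the AP-1 motif, 7.02% the GAS motif, 3.90% the NF-κB motif, 10.2% the NRF2 core, 23.3% the PU.1 core and 32.7% the GC box. These are matches of letters in short windows and not binding sites.

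Cybb, the catalytic chain, read 825, 734 and 838 FPKM in knockout libraries 1, 2 and 3 against 921, 1204 and 980 FPKM in control libraries 1, 2 and 3. The lowest control library was above the highest knockout library, and control library 2 was the highest of all. The means were 798.8 ± 56.3 FPKM in knockout and 1035 ± 150 FPKM in control libraries (SD, n = 3 each), that is 77.2% of the control level. The log2 fold change was -0.37 (SE 0.15, 95% confidence interval -0.71 to -0.02) with an adjusted p of 0.161 by limma. With the replicate block the interval was -0.78 to 0.04 and so included 0. After rescaling, the groups overlapped, at 783 to 914 against 859 to 1128 FPKM, and the log2 fold change was -0.22 (adjusted p = 0.400, limma). Leaving out a library moved it between -0.45 and -0.25, and the latter, without control library 2, came with an adjusted p of 0.332 by limma. Without control library 3 it was -0.40 (adjusted p = 0.146, limma), and without knockout library 2 it was -0.31 (adjusted p = 0.460, limma).

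Cyba, which holds gp91phox in the membrane, was at 842, 807 and 907 FPKM in knockout and at 859, 958 and 855 FPKM in control libraries. Its spread was small, with coefficients of variation of 6.02% in knockout and 6.57% in control libraries, and the groups overlapped. Its log2 fold change was -0.06 (SE 0.12, 95% confidence interval -0.35 to 0.22, adjusted p = 0.763, limma), so the data are compatible with a knockout level between 0.784 and 1.17 times the control level. It turned to 0.08 after rescaling (adjusted p = 0.732, limma). Without control library 3 it was -0.09, and without knockout library 2 it was -0.03.

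The cytosolic subunits Ncf1 and Ncf4 differed more between libraries of a group than between groups. Ncf1, the organiser that carries the complex to the membrane, was at 110, 111 and 150 FPKM in knockout and at 90.8, 119 and 170 FPKM in control libraries. Its log2 fold change was 0.00 (SE 0.25, 95% confidence interval -0.58 to 0.58, adjusted p = 0.998, limma), and the highest control library was 1.87 times the lowest. Ncf4, which binds phosphatidylinositol 3-phosphate on phagosomes, was at 106, 99.2 and 133 FPKM in knockout and at 99.2, 102 and 151 FPKM in control libraries. Its log2 fold change was -0.04 (SE 0.20, 95% confidence interval -0.52 to 0.44, adjusted p = 0.909, limma). In both groups library 3 was the highest for either gene, and the groups overlapped. Without control library 3 the log2 fold change was 0.24 for Ncf1 and 0.15 for Ncf4, and without knockout library 2 it was 0.07 and 0.04, so that of Ncf4 changed sign in both fits. An annotated neighbour that overlaps Ncf1, LOC115490142, had 29 to 83 reads in a library against 9903 to 16987 for Ncf1.

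Rac2, the Rac GTPase of blood cells, was at 74.1, 73.7 and 87.5 FPKM in knockout and at 116, 75.9 and 78.6 FPKM in control libraries. Control library 1 stood above the other 5 libraries, which lay between 73.7 and 87.5 FPKM. The log2 fold change was -0.17 (SE 0.19, 95% confidence interval -0.62 to 0.27, adjusted p = 0.581, limma), and without control library 1 it was 0.02. It was -0.26 without control library 3 and -0.13 without knockout library 2.

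Sod1, the cytosolic dismutase, was at 121, 103 and 144 FPKM in knockout and at 115, 107 and 168 FPKM in control libraries. The groups overlapped, and library 3 was again the highest of each. Limma gave a log2 fold change of -0.07 (SE 0.21, 95% confidence interval -0.56 to 0.42, adjusted p = 0.856). It changed sign without control library 3, to 0.13, and without knockout library 2, to 0.05.

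Sod2, the mitochondrial dismutase, had the largest log2 fold change in size among the 7 genes. It was at 256, 214 and 295 FPKM in knockout and at 401, 379 and 372 FPKM in control libraries. The controls lay close together, with a coefficient of variation of 3.93%, and the highest knockout library was well below the lowest of them. The means were 255.1 ± 40.6 and 383.9 ± 15.1 FPKM (SD, n = 3 each), a knockout level of 66.4% of control. The log2 fold change was -0.60 (SE 0.15, 95% confidence interval -0.95 to -0.25) with an unadjusted p of 0.00469 and an adjusted p of 0.0553 by limma, just outside the threshold. The groups stayed apart after rescaling, at 228 to 288 against 326 to 415 FPKM, an order that held for 15.6% of all tested genes, and the log2 fold change was then -0.45 (adjusted p = 0.127, limma). Among the settings tried it passed the threshold only without control library 3, with -0.62 and an adjusted p of 0.0491 by limma, where 8.93% of all tested genes were lower past it. Without knockout library 2 it was -0.48 (adjusted p = 0.221, limma). The two-sided exact permutation test over libraries gave p = 0.1 for Cybb and Sod2, the smallest value that 3 against 3 libraries allow, 0.4 for Cyba, 0.5 for Rac2, 0.8 for Ncf4 and Sod1, and 1 for Ncf1.

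**Figure D2:**
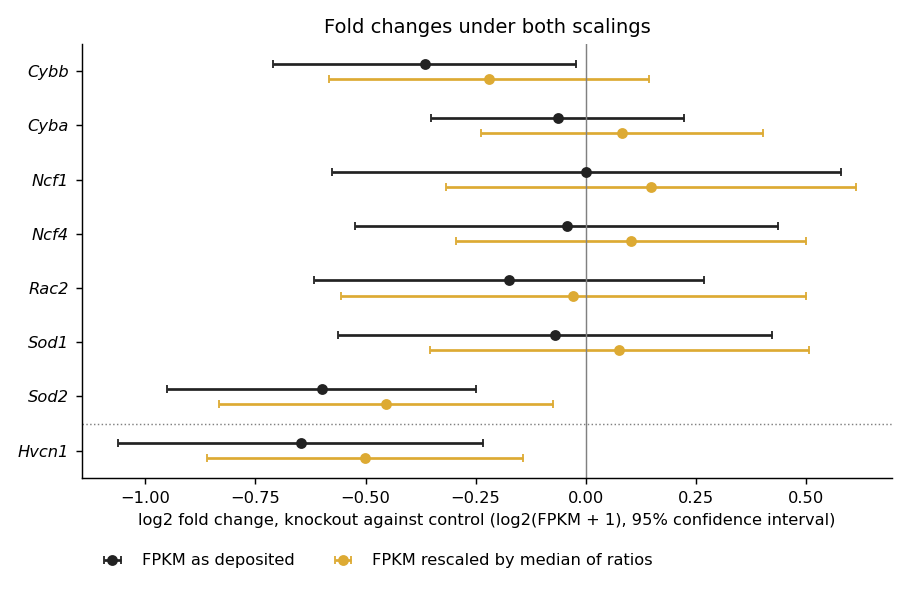
Log2 fold changes of knockout against control with 95% confidence intervals from limma, for the 7 genes and, under the dotted line, the partner gene Hvcn1, on FPKM as deposited (black) and rescaled by the median of ratios (yellow). The intervals of Sod2 and Hvcn1 lie below 0 under both scalings, that of Cybb only under the deposited one, and those of Cyba, Ncf1, Ncf4, Rac2 and Sod1 include 0 under both.

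Ratios of paired genes within a library do not depend on how the libraries were scaled, and 6 were formed. They were chosen after the values were known. Of these, 4 pair a gene whose groups were apart with one whose groups overlapped, and share genes with each other. They describe the values above on another scale and carry no test. Cybb stood at 0.980, 0.910 and 0.923 times Cyba in knockout libraries and at 1.07, 1.26 and 1.15 times Cyba in control libraries. The catalytic chain was therefore below its partner in every knockout library and above it in every control library, a log2 difference of -0.30. Sod2 stood at 2.13, 2.07 and 2.05 times Sod1 in knockout and at 3.49, 3.53 and 2.21 times Sod1 in control libraries, a log2 difference of -0.53. Control library 3 was close to the knockout libraries in this ratio, and it was also the library with the highest Sod1. Against Cyba, Sod2 was at 0.265 to 0.325 in knockout and 0.395 to 0.467 in control libraries. Ncf1 against Ncf4 overlapped between groups, at 1.05 to 1.13 and 0.915 to 1.17, and so did Rac2 against Rac1, at 0.528 to 0.596 and 0.500 to 0.835. Hvcn1 against Cyba, described further on, was apart at a log2 difference of -0.59.

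**Figure D3:**
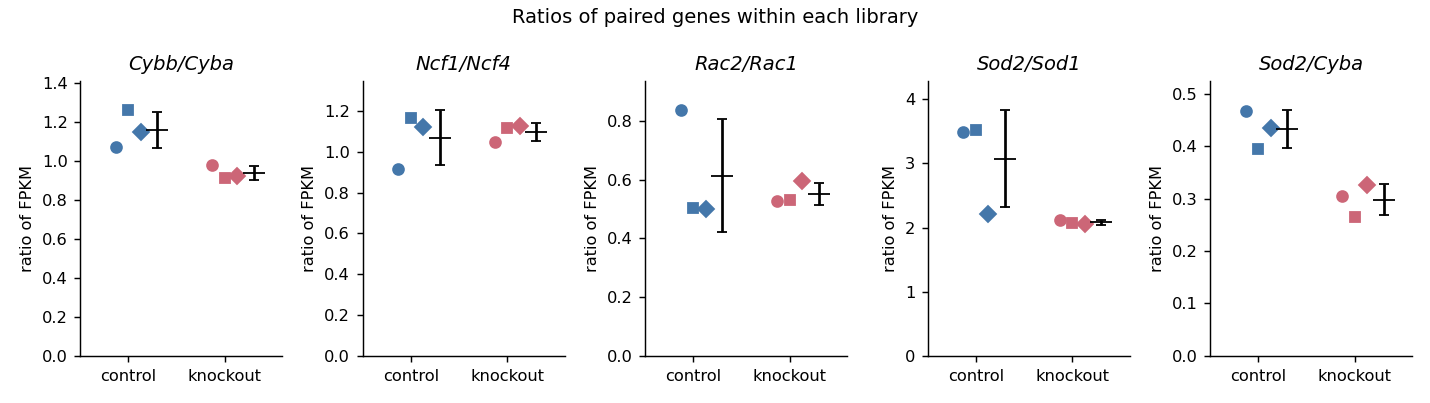
Ratio of FPKM of paired genes within each control (blue) and knockout (red) library, with circles, squares and diamonds for libraries 1, 2 and 3 and the mean ± SD of 3 libraries in black; each axis starts at 0. Cybb/Cyba, Sod2/Sod1 and Sod2/Cyba are lower in every knockout library than in every control library, while Ncf1/Ncf4 and Rac2/Rac1 overlap.

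Across the 6 libraries some of the genes varied together. The closest pair was Ncf4 and Sod1 (Pearson's r = 0.975 of log2(FPKM + 1), 0.961 after rescaling), followed by Ncf1 and Ncf4 (0.933 and 0.868) and by Ncf1 and Sod1 (0.838 and 0.712). These are the genes that were highest in library 3 of both groups. Cybb varied with Sod2 (0.815, and 0.691 after rescaling). In both, every knockout library lay below every control library as deposited, for Cybb no longer after rescaling. Neither passed in the fit of all 6 libraries. The r of Cybb and Cyba of 0.802 fell to 0.327 after rescaling. These values describe 6 libraries that share depth and scaling and carry no test. Among the 9030 tested genes the patterns most like Cybb were those of Ptges3-ps and Eif3e (r = 0.999 and 0.995), the former a pseudogene whose reads could be shared with its parent gene. Those most like Cyba were Alg13 and Smad1 (0.993 and 0.984), which fell to 0.443 and 0.710 after rescaling. Mknk1 and Tmem177 (both near 0.997) were nearest to Ncf1, Mrpl37 and Kctd5 (0.995 and 0.993) to Ncf4, and Ppif (0.989) was among the nearest to Rac2. Tubgcp3 and Pisd (0.999 and 0.993, and 0.791 and 0.990 after rescaling) were nearest to Sod1. Mapkapk2 and Camp (0.9997 and 0.998, and 0.958 and 0.974 after rescaling) were nearest to Sod2. Camp is one of the neutrophil markers above and rested on 9 to 37 reads in a library. The more abundant neutrophil markers Csf3r and Mmp8 overlapped between groups.

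Other oxidase genes were described from a list of 11 partners and homologues, of which 6 were listed in the table and 4 reached the filter. Of these 4, 0 passed in limma and 1, Hvcn1, had an unadjusted p under 0.05, beside 27.6% of all tested genes, with a median log2 fold change of -0.31. All 4 log2 fold changes were below 0, beside 63.5% of all tested genes.

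Hvcn1, the proton channel that balances the charge moved by the oxidase and that B cells also express, was at 132 ± 17.6 FPKM in knockout and 208.4 ± 39.3 FPKM in control libraries (SD, n = 3 each). Its groups did not overlap, with a log2 fold change of -0.65 and an adjusted p of 0.0690 by limma. With library numbers added as a replicate block it passed (adjusted p = 0.0464, limma), the only 1 of the 4 partners to do so, where 5.57% of all tested genes were lower. Rac1, the Rac protein found in most cells, was at 142.1 ± 4.11 and 148.6 ± 9.52 FPKM (SD, n = 3 each; adjusted p = 0.757, limma). Rap1a, a small GTPase that copurifies with the cytochrome, was at 24.4 ± 1.48 and 35.2 ± 14.1 FPKM (SD, n = 3 each), a log2 fold change of -0.44 (adjusted p = 0.295, limma). For Cybc1, the chaperone of the cytochrome, named beyond the rule as the last of the 4, limma gave a log2 fold change of -0.17 with an adjusted p of 0.540. The homologues Nox1 and Noxo1 stayed below 1 FPKM, and Nox3, Nox4, Noxa1, Duox1 and Duox2 had no row.

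Regulators of assembly, such as Rac exchange factors, protein kinase C isoforms and class III phosphatidylinositol 3-kinase subunits, were 19 genes, all listed, of which 17 were tested and 0 passed in limma, beside 7.31% of all tested genes. At an unadjusted p under 0.05 there were 2 of 17, beside 27.6% of all tested genes, and the median log2 fold change was 0.04. The most abundant were Arhgdia and Arhgdib, inhibitors that hold Rac in the cytosol, and Prkcd, a kinase of p47phox. Arhgdia was at 453.1 ± 6.16 and 407.4 ± 68.5 FPKM, Arhgdib at 205 ± 39.0 and 232.5 ± 31.8 FPKM, and Prkcd at 156.1 ± 13.9 and 147.9 ± 12.4 FPKM (knockout and control, SD, n = 3 each). Each overlapped between groups. Prkcb, named after its values were seen, lay nearest the threshold at 10.3 ± 1.47 and 17.3 ± 2.72 FPKM, a log2 fold change of -0.69 (adjusted p = 0.0509, limma).

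In a list of peroxide removal that also holds Ccs, the copper chaperone of SOD1, 5 of 16 tested genes fell and none rose, 31.25% beside 4.74% of all tested genes lower in knockout. The median log2 fold change of the 16 was -0.23. Prdx6, a peroxiredoxin that uses glutathione, was at 51.2 ± 18.7 FPKM in knockout and 259.6 ± 30.0 FPKM in control libraries, a log2 fold change of -2.37 (SE 0.25, adjusted p = 0.00651, limma). Cat, encoding catalase, was at 36.6 ± 13.1 and 117.9 ± 9.05 FPKM, a log2 fold change of -1.72 (SE 0.24, adjusted p = 0.0125, limma). Prdx1, the most abundant gene of the list, was at 1655 ± 373 and 4370 ± 322 FPKM, a log2 fold change of -1.42 (SE 0.19, adjusted p = 0.0113, limma). In all of them every knockout library lay below every control library. Their log2 fold changes were larger in size than that of Sod2, a difference that was not tested.

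Gsr, which regenerates glutathione, had a log2 fold change of -1.45 (SE 0.23, adjusted p = 0.0183, limma), and Txnrd1, which regenerates thioredoxin, of -1.31 (SE 0.21, adjusted p = 0.0174, limma). Prdx5 was at 666 ± 150 and 950 ± 138 FPKM, a log2 difference of -0.53 (adjusted p = 0.139, limma), and Txn1, thioredoxin, at 519 ± 30.5 and 620 ± 91.5 FPKM with -0.25 (adjusted p = 0.321, limma). Ccs stood at a log2 fold change of 0.13 (adjusted p = 0.652, limma). The directions of the 5 genes held under every setting tried, but none of them passed without knockout library 1 or without control library 2, when 30 and 8 genes of the whole table passed. Cat also lost its call without knockout library 2 (log2 fold change -1.52, adjusted p = 0.0521, limma), where 63 genes passed.

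**Figure D4:**
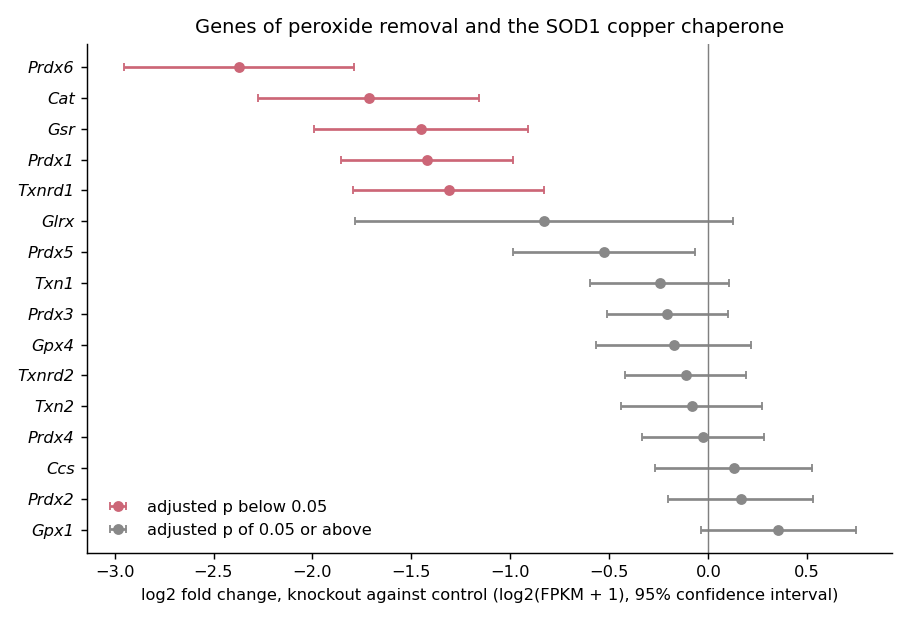
Log2 fold changes of knockout against control with 95% confidence intervals from limma for the 16 tested genes of the list of peroxide removal, the SOD1 copper chaperone Ccs included, ordered by size, with those at an adjusted p below 0.05 in red and the rest in grey. Prdx6, Cat, Gsr, Prdx1 and Txnrd1 are in red, all below -1, and Ccs, Prdx2 and Gpx1 are the 3 genes above 0.

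Gene Ontology terms deposited with the table were picked after the values were seen, and single genes of them are given beside the 7.31% of all tested genes that passed. The term superoxide anion generation held Acp5, a phosphatase of macrophages and osteoclasts, which rose from 67.8 ± 12.9 FPKM in control to 147.2 ± 8.11 FPKM in knockout libraries (adjusted p = 0.0132, limma). Cd24a, a gene of the term respiratory burst that also marks B cells and neutrophils, fell by a log2 difference of -0.54 (adjusted p = 0.0414, limma). In removal of superoxide radicals, Sod1 and Sod2 stood beside 6 other tested genes, of which Nqo1, a quinone reductase, fell from 18.4 ± 1.03 to 2.20 ± 1.33 FPKM (adjusted p = 0.00828, limma). Prdx1 and the copper transporter Atp7a, whose log2 fold change was -1.10 (adjusted p = 0.0297, limma), also fell, which makes 3 of the 6 beside 4.74% of all tested genes lower in knockout.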

How the data were processed

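RNA of PEMs was measured in 6 libraries, 3 knockout and 3 control, grouped by title. The table holds FPKM per library, which the authors made from reads counted per gene, and signal columns of mean reads per group that the authors divided by DESeq2 size factors. The build named in the submitters' processing notes is mm9; aligner, counter and strandedness are not given in the sources used here. The deposited fold changes, p-values and q-values of the authors' own comparison were not used. Reads recovered from FPKM and group means were whole for 100% of values (within 0.02 of a read), 36170767 to 42217558 per library.

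Log2(FPKM + 1) of the 9030 genes with a mean of at least 1 FPKM in a group was fitted with limma 3.58.1 (eBayes with trend) in R 4.3.3, with Benjamini-Hochberg adjustment over those genes and a threshold of 0.05, and the scripts were tested on simulated data. Fold changes on this scale understate low genes. Exact permutation tests used SciPy 1.17.1 in Python 3.11.15. The members, lists and tests were chosen with earlier results of these data known. Named genes were the 7 members, Timd4, Lyz2, every gene of a list past the threshold and the 3 with the highest mean in each list, and the 2 genes most like each member by Pearson's r. Markers were counted, naming the highest. Alternatives were 2 other filters, a pseudocount of 0.1, rescaling, voom on recovered reads, a replicate block and each library left out. Libraries of the same number deviated together from their group means (r = 0.109, 0.110 and 0.304), each over 0.1. By that rule the replicate block was added as an alternative, and the main fit has none. Pairs of other numbers ranged from -0.33 to 0.29, the highest being knockout 2 with control 1. The pairing is thus weak, is not established by these values and rests on the data, not on the labels. A count model was planned only for deposited counts. Expression values are of whole genes, and no isoform was resolved. Some genes of the lists and rules above are not reported here.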

Additional observations from a re-analysis of the deposited data

How the results depend on the processing

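No member passed the threshold in any setting but one, the fit without control library 3, so members past it numbered 0 to 1 when each library was left out. Cybb and Sod2 kept their direction in all settings, Sod2 between -0.71 and -0.48 as libraries were left out. Under rescaling and under voom on recovered reads the log2 fold change turned positive for Cyba (0.0828 in both), Ncf4 (0.102 and 0.103) and Sod1 (0.0758 and 0.0762). Leaving out libraries gave -0.21 to 0.24 for Ncf1, -0.17 to 0.15 for Ncf4, -0.28 to 0.0181 for Rac2 and -0.19 to 0.13 for Sod1. Of the 4 tested partners, 1 (Hvcn1) passed with the replicate block and 0 in every other setting. Of the regulators, 1 passed with the filter at 5 FPKM and 0 to 2 with a library left out, and of the peroxide genes 0 to 5.

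Over all genes 660 passed (232 higher, 428 lower in knockout), and 664 after rescaling (342 higher, 322 lower) and 589 under voom (298 higher, 291 lower). There were 436 with the filter at 5 FPKM (255 lower). Those higher numbered 141 with no filter and 352 with the replicate block (503 lower). With a library left out 8 to 1333 passed, 1 to 529 higher and 7 to 804 lower, fewest without control library 2 and most without control library 3. Timd4 passed at -4.00 with a pseudocount of 0.1 and at -2.66 with the replicate block. Under voom on recovered reads it did not pass, at -4.18 (adjusted p = 0.218, limma). The confidence interval there, -8.73 to 0.37, included 0. Nor did Timd4 pass with no filter, with the filter at 5 FPKM or after rescaling (adjusted p = 0.123, 0.0791 and 0.0889, limma). With a library left out it ranged from -3.63 to -2.01. It passed among those fits only without control library 3, which was singled out by its own Timd4 level. Lyz2 ranged from -6.81 to -3.42 with a library left out. At an adjusted p of 0.05 the block changed no call among members and the peroxide genes, while the unadjusted p of Cybb moved from 0.0402 to 0.0709. The causes of these changes were not tested. Counting error of the member values was at most 1.94%, which covers counting alone. The tools edgeR and DESeq2 were not run because the authors deposited no counts per library.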
